A study of Mus musculus with 6 samples.

Results

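The genes described here are the 5 mouse ATG8 genes Map1lc3a, Map1lc3b, Gabarap, Gabarapl1 and Gabarapl2, and 5 genes of the machinery that attaches their proteins to membranes, Atg4b, Atg7, Atg3, Atg5 and Atg16l1. They were chosen by name, and a probe was assigned to a gene when its transcript accession mapped to that symbol. This gave 15 of the 56605 probes on the array and 10 of the 23462 genes that could be named. Gene expression was measured with 1-color microarrays in P2RY12-selected microglia from male mice on a C57BL/6 background, aged 10 weeks per the labels, in the resting state (n = 3 per group). All mice carried a loxP-controlled PGC-1α allele linked to eGFP through an internal ribosome entry site. PGC-1αf/f mice had no Cre recombinase and served as littermate controls. In mPGC-1α mice, a tamoxifen-inducible Cre in the Cx3cr1 locus (Cx3cr1-CreERT2) induced PGC-1α overexpression after several daily doses of tamoxifen and a rest of about a month. The study's text describes mice of both genotypes as examined after tamoxifen induction. Cx3cr1 is also active in other mononuclear phagocytes, so the Cre line is not restricted to microglia, and the isolation relied on P2RY12. The paper states that the rest after tamoxifen makes the overexpression specific to microglia as opposed to macrophages. The sources do not say whether each array came from 1 mouse, so p-values measure the spread between these arrays.

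ATG8 proteins are small ubiquitin-like proteins that become attached to the lipid phosphatidylethanolamine on forming autophagosomes, where they recruit cargo receptors and help the membrane to close and fuse. The protease ATG4B trims each ATG8 precursor and later releases it from the membrane, ATG7 acts as the E1-like activating enzyme, ATG3 acts as the E2-like enzyme, and the ATG12-ATG5-ATG16L1 complex acts as the E3-like enzyme. In microglia the same machinery also attaches LC3 to phagosomes that hold engulfed material.

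To show the regulatory sequence in front of these genes, promoters were taken from a set based on RefSeq (assembly GRCm38.p6). The set used held an entry for 8 of the 10 genes and none for Map1lc3a and Atg16l1. Each entry covered 250 bases before and 50 bases after the start site. Map1lc3b is shown because it had the lowest p-value of the 10 genes. The 250 bases before its start site lie at chr8:121590188-121590437 on the plus strand and read, from 5′ to 3′:
Map1lc3b: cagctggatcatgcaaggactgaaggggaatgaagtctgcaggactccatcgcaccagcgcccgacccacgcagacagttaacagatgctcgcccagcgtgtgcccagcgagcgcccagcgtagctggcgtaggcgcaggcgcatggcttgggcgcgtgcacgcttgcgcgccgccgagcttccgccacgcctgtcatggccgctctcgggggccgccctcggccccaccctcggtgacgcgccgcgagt
This stretch was 69.6% G and C and held 30 CG dinucleotides. It has no capitals because none of the 3 motifs searched was in it.

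The motifs were searched on both strands over the whole entry of each gene. The element TCAAGGTCA, which is bound by estrogen-related receptors (partners of PGC-1α), was in 0 of the 8 promoters and in 0.423% of all 32851 mouse promoters in the table. The palindromic consensus bound by NRF1 was in 0 of the 8 and in 0.971% of all. The hexamer CACGTG, the core of the element read by TFEB and TFE3, was in 3 of the 8, those of Atg7, Atg5 and Atg3, and in 7.15% of all. These 3 windows of 30 bases, each on the plus strand, are shown with the hexamer in capitals:
Atg7: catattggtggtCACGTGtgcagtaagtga
Atg5: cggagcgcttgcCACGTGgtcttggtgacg
Atg3: gcctccttttgtCACGTGtcctgggagagt
They lie at chr6:114670952-114670981, chr10:44268313-44268342 and chr16:45158723-45158752, and the hexamer begins 132, 14 and 94 bases before the start sites of Atg7, Atg5 and Atg3, respectively. A match describes the letters in the window only.

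On the 6 arrays, 27025 to 30272 of 59305 spots were well above background, and 0 were saturated. PGC-1αf/f replicate 3 stood apart, with a mean correlation across probes of 0.928 with the other arrays, whereas the other 5 ranged from 0.962 to 0.972. mPGC-1α replicate 3 went against its label, because 0 of 4 Y-linked genes were well above background on it and 4 of 4 were on each of the other arrays, although all mice are labeled male. Differences are therefore also given with one or both of these arrays left out. Levels of the overexpressed gene Ppargc1a (probe A_51_P279038) were 0.19, -0.44 and -1.21 on the PGC-1αf/f arrays against 0.57, 0.28 and 0.08 on the mPGC-1α arrays, on the level scale used throughout, the log2 signal less the 75th percentile of that array. The groups overlapped, and the difference of 0.80 (SE 0.35) had a limma adjusted p of 0.306. It was 0.44 without PGC-1αf/f replicate 3, 0.92 without mPGC-1α replicate 3, 0.55 without both and 1.14 without PGC-1αf/f replicate 1. A second tested Ppargc1a probe (A_55_P2745394) differed by 0.59 (SE 0.38, limma adjusted p 0.445), again with overlap. Whether either probe matches the transgene's transcript was not analysed here.

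Next, the 10 genes were examined. All of them were well above background on all 6 arrays, and none of the 15 probes passed limma at an adjusted p of 0.05, which 0.0792% of all 25257 tested probes did (0.065% of 12302 genes, each represented by its brightest probe). Map1lc3b was higher in mPGC-1α microglia on both of its probes, Gabarap was slightly higher, and Atg4b was lower. On the brightest probe, the groups of each of these genes did not overlap, as did those of 22.9% of all tested genes. Of the 14 probes with values on every array, 4 were higher without overlap, including the second Atg7 probe, and 1 was lower. Among all such tested probes the share was 25.2%. The other 7 genes, represented in the same way, overlapped between groups. Thus the data show no member past the threshold, and the values below give how far the groups lay apart.

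**Figure D1:**
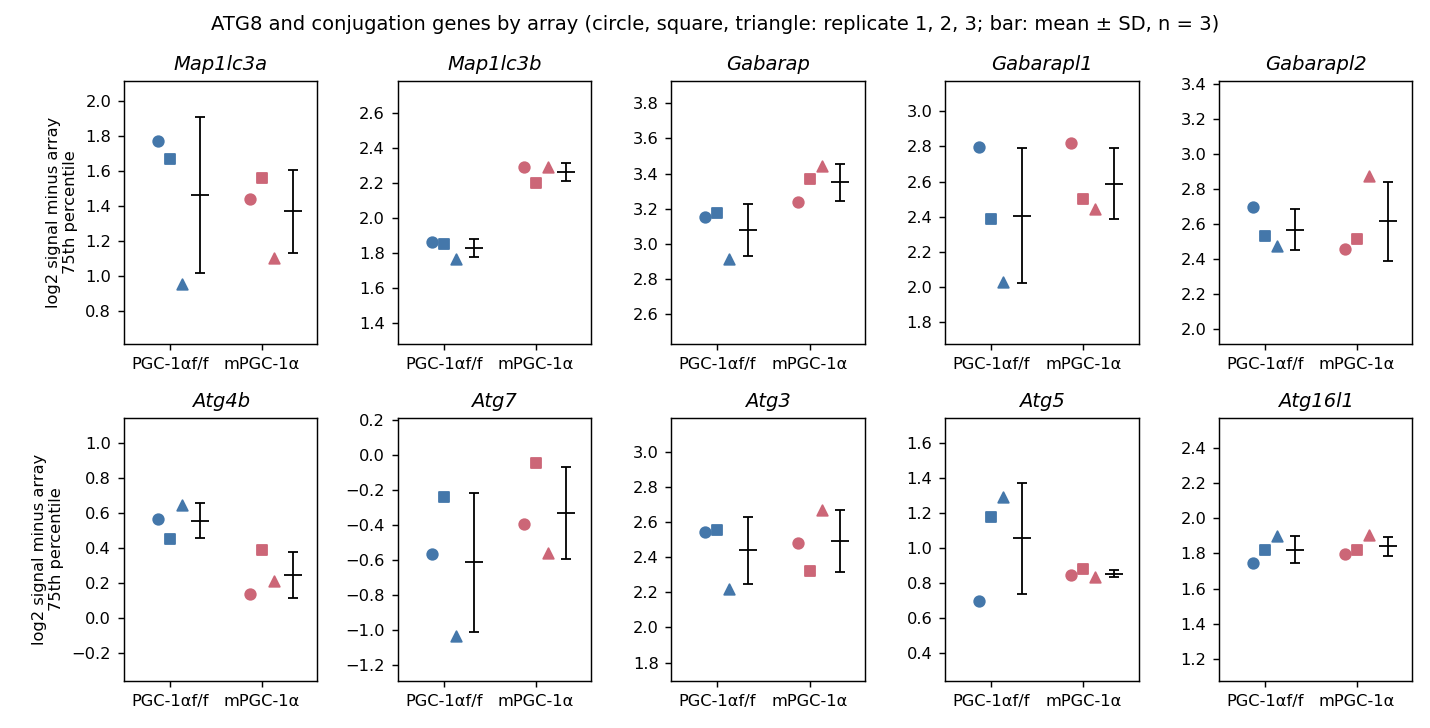
Level of each gene's brightest probe on each array (y axis, log2 signal less the 75th percentile of that array, with every panel spanning the same height). Points are PGC-1αf/f (blue) and mPGC-1α (red) arrays, with circle, square and triangle for replicates 1, 2 and 3, and black bars give mean ± SD (n = 3). The groups lie apart for Map1lc3b, Gabarap and Atg4b and overlap for the other 7 genes.

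Among the LC3 genes, Map1lc3b encodes LC3B, the ATG8 protein most often used to mark autophagosomes. Its brighter probe (A_66_P124779) gave 1.87, 1.85 and 1.77 on the PGC-1αf/f arrays against 2.29, 2.20 and 2.29 on the mPGC-1α arrays. All 3 mPGC-1α arrays were above all 3 controls, and the gap between the groups was wider than the range within either. The group means were 1.83 ± 0.05 and 2.26 ± 0.05 (SD, n = 3 each). mPGC-1α exceeded PGC-1αf/f by 0.43 on the log2 scale (SE 0.12, 95% interval 0.15 to 0.72), or 1.35-fold, with an unadjusted p of 0.00867 and an adjusted p of 0.192 by limma. Of all tested genes, 2.89% had a smaller p-value and 21.1% a larger absolute difference. The second probe (A_52_P563475) gave 1.24, 1.56 and 1.22 against 1.86, 1.74 and 2.07, again without overlap, and differed by 0.55 (SE 0.16, limma adjusted p 0.201). Leaving out PGC-1αf/f replicate 3, mPGC-1α replicate 3 or both, this second probe differed by 0.49, 0.46 and 0.40.

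The difference of the brighter Map1lc3b probe was 0.40 without PGC-1αf/f replicate 3, 0.42 without mPGC-1α replicate 3 and 0.39 without both. PGC-1αf/f and mPGC-1α arrays lay in different rows of 1 slide, so row and group cannot be told apart, but slide columns 1 and 2 each held an array of both groups. Within these columns mPGC-1α was higher by 0.43 and 0.35 for the same probe.

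Map1lc3a encodes the related protein LC3A. Its single probe (A_51_P464981) gave 1.77, 1.67 and 0.95 on the PGC-1αf/f arrays against 1.44, 1.56 and 1.10 on the mPGC-1α arrays. Replicate 3 was the lowest array of each group, and the mPGC-1α values lay inside the range of the controls. The difference was -0.10 (SE 0.25, 95% interval -0.68 to 0.49, limma adjusted p 0.866). It was -0.35 without PGC-1αf/f replicate 3, 0.04 without mPGC-1α replicate 3 and -0.22 without both, so its sign rested on single arrays.

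To compare both LC3 genes, the Map1lc3b level minus the Map1lc3a level was taken on each array, which shows unequal change only, since levels of different probes cannot be ranked. Its values were 0.10, 0.18 and 0.81 on the PGC-1αf/f arrays against 0.85, 0.64 and 1.19 on the mPGC-1α arrays. PGC-1αf/f replicate 3 overlapped the mPGC-1α arrays. The means differed by 0.53 on the log2 scale, from 0.36 ± 0.39 to 0.89 ± 0.28 (SD, n = 3 each). An exact two-sided permutation test gave p = 0.2, but with 3 arrays against 3 its smallest possible p is 0.1, so it could not pass 0.05 and decides nothing about unequal change.

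The GABARAP genes encode the other branch of the ATG8 family, whose proteins bind the ULK1 complex and act late in autophagosome maturation. Gabarap (probe A_55_P2010223) gave 3.15, 3.18 and 2.91 on the PGC-1αf/f arrays against 3.24, 3.37 and 3.44 on the mPGC-1α arrays. The mPGC-1α arrays were all higher, but the lowest of them lay only just above the highest control. The difference was 0.27 (SE 0.14, 95% interval -0.06 to 0.60, limma adjusted p 0.369). It was 0.18 without PGC-1αf/f replicate 3, 0.22 without mPGC-1α replicate 3, 0.14 without both, and 0.08 and 0.19 within the shared slide columns.

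Gabarapl1 had a bright probe (A_52_P633410) with 2.80, 2.39 and 2.03 on the PGC-1αf/f arrays against 2.82, 2.50 and 2.44 on the mPGC-1α arrays. Replicate 1 was the highest array of both groups, and the groups overlapped. The difference was 0.18 (SE 0.22, 95% interval -0.35 to 0.71, limma adjusted p 0.695), and it was -0.01 without PGC-1αf/f replicate 3, 0.25 without mPGC-1α replicate 3, 0.38 without PGC-1αf/f replicate 1 and 0.07 without mPGC-1α replicate 1. A much dimmer second probe (A_55_P2727060) ranged from -2.82 to -1.81 in controls and from -2.69 to -1.98 in mPGC-1α microglia and differed by -0.03 (SE 0.30). It was the only second probe of the 5 genes with a pair of probes whose sign opposed that of the brighter one.

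Gabarapl2, also known as GATE-16, gave 2.70, 2.53 and 2.48 on the PGC-1αf/f arrays against 2.46, 2.52 and 2.88 on the mPGC-1α arrays on probe A_55_P2877258. mPGC-1α replicate 3 was the highest and mPGC-1α replicate 1 the lowest of all 6 arrays. The difference was 0.05 (SE 0.16, 95% interval -0.33 to 0.43, limma adjusted p 0.899), and it was -0.08 without mPGC-1α replicate 3 and -0.13 without both replicates 3. On the second probe (A_55_P2485059), the spot of PGC-1αf/f replicate 1 was an outlier and was dropped from the fit. The remaining arrays gave 2.71 and 2.58 against 2.90, 2.85 and 2.80, a difference of 0.21 (SE 0.15, limma adjusted p 0.497). That value depended on the dropped spot and on the scaling, since it was 0.04 with the spot kept, 0.08 with quantile normalization, 0.01 with arrays centred on their median, 0.14 without PGC-1αf/f replicate 3 and -0.11 with the deposited table. The GABARAP genes are close paralogs, and how far their probes cross-hybridize was not analysed here.

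**Figure D2:**
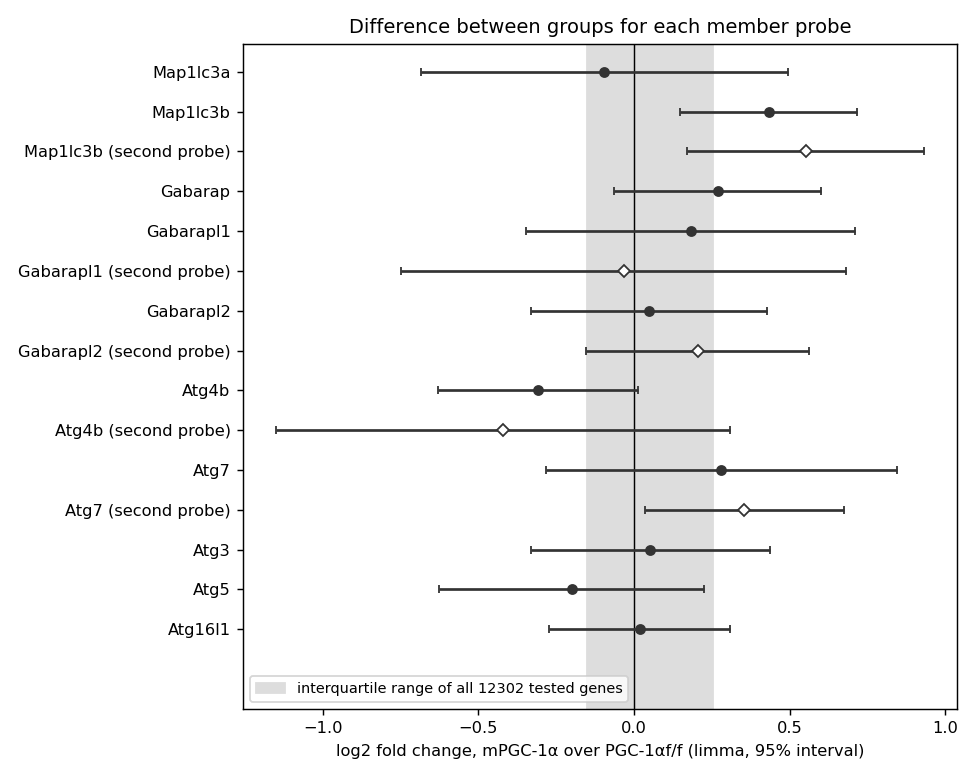
Difference between groups for each of the 15 probes (x axis, log2 fold change of mPGC-1α over PGC-1αf/f, with bars for the 95% interval from limma). Filled circles are the brightest probe of a gene, open diamonds the second probe, and the gray band is the interquartile range of all tested genes, -0.15 to 0.25. The intervals of both Map1lc3b probes and of the second Atg7 probe lie above 0, and all others include 0.

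Moreover, the conjugation machinery was examined in the order in which it acts. For Atg4b, the protease, the brighter probe (A_55_P2912682) gave 0.57, 0.45 and 0.65 on the PGC-1αf/f arrays against 0.14, 0.39 and 0.21 on the mPGC-1α arrays. All mPGC-1α arrays were lower than all controls, with replicate 2 of both groups nearest to each other. The group means were 0.56 ± 0.10 and 0.25 ± 0.13 (SD, n = 3 each). The difference was -0.31 (SE 0.14, 95% interval -0.63 to 0.01, limma unadjusted p 0.057, adjusted p 0.311). It was -0.26 without PGC-1αf/f replicate 3, -0.29 without mPGC-1α replicate 3 and -0.25 without both, and -0.43 and -0.06 within the shared slide columns.

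The second Atg4b probe (A_52_P131490) gave -2.18, -1.94 and -2.19 against -2.24, -2.09 and -3.26. The groups overlapped, and mPGC-1α replicate 3 was far below the others. The difference of -0.42 (SE 0.31, limma adjusted p 0.501) was -0.06 without that array and -0.64 without mPGC-1α replicate 2.

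Atg7, the E1-like enzyme, was measured by 2 probes that match different transcript accessions of the gene. On the brighter one (A_51_P474187), the values were -0.57, -0.24 and -1.03 on the PGC-1αf/f arrays against -0.39, -0.05 and -0.56 on the mPGC-1α arrays. Replicate 2 was the highest and replicate 3 the lowest array in both groups, which overlapped. The difference was 0.28 (SE 0.24, 95% interval -0.28 to 0.84, limma adjusted p 0.563), and it was 0.07 without PGC-1αf/f replicate 3, 0.47 without PGC-1αf/f replicate 2, 0.14 without mPGC-1α replicate 2 and 0.39 without mPGC-1α replicate 3.

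The second Atg7 probe (A_66_P119999) gave -0.72, -0.64 and -0.62 against -0.46, -0.30 and -0.16. Here the controls were close together and all mPGC-1α arrays were higher. The difference was 0.36 (SE 0.14, 95% interval 0.03 to 0.68), with a limma unadjusted p of 0.0344 and an adjusted p of 0.272. An unadjusted p under 0.05 was found for 17.1% of all tested probes with values on every array. It was 0.38 without PGC-1αf/f replicate 3 and 0.28 without mPGC-1α replicate 3.

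Atg3, the E2-like enzyme that passes ATG8 proteins on to the lipid, gave 2.54, 2.55 and 2.22 on the PGC-1αf/f arrays against 2.48, 2.32 and 2.67 on the mPGC-1α arrays. PGC-1αf/f replicate 3 was the lowest and mPGC-1α replicate 3 the highest array. The difference was 0.05 (SE 0.16, 95% interval -0.33 to 0.44, limma adjusted p 0.887), -0.06 without PGC-1αf/f replicate 3, -0.04 without mPGC-1α replicate 3 and -0.15 without both.

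Of the E3-like complex, Atg5 encodes the protein that ATG12 is attached to. Its levels were 0.70, 1.18 and 1.29 on the PGC-1αf/f arrays against 0.85, 0.88 and 0.84 on the mPGC-1α arrays. The mPGC-1α arrays were tightly grouped inside the wider range of the controls. The difference was -0.20 (SE 0.18, 95% interval -0.63 to 0.23, limma adjusted p 0.586), and it was -0.08 without PGC-1αf/f replicate 3, -0.14 without PGC-1αf/f replicate 2, -0.38 without PGC-1αf/f replicate 1 and -0.19 without mPGC-1α replicate 3. Atg16l1, which brings the complex to the membrane, gave 1.74, 1.82 and 1.90 on the PGC-1αf/f arrays against 1.80, 1.82 and 1.90 on the mPGC-1α arrays. The groups had nearly the same range, and the difference was 0.02 (SE 0.12, limma adjusted p 0.951), or 0.06 without PGC-1αf/f replicate 3 and -0.01 without mPGC-1α replicate 3. Its 95% interval of -0.27 to 0.31 was among the narrower ones, so larger shifts in mean level lie outside it.

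As a group, 7 of the 10 genes had a higher mean in mPGC-1α microglia and 3 a lower one, beside 54.1% of all tested genes with a difference above 0. With quantile normalization, and with arrays centred on their median, 4 of the 10 were higher. Map1lc3b alone, 1 gene of the 10, had an unadjusted limma p under 0.05 and was higher, and 0 were lower with such a p, where 8.16% and 5.71% of all genes were (13.9% in either direction). Groups did not overlap in 2 genes that were higher and in 1 that was lower, against a background of 12.2% and 10.8% (22.9% in either direction). These shares are near those of all genes, and with 10 genes a single gene moves a share by 10 percentage points. The median difference was 0.05 (range -0.31 to 0.43), against 0.03 over all tested genes. It was 0.18 for the ATG8 genes and 0.02 for the machinery genes, and both medians depended on single arrays and on the scaling. Without PGC-1αf/f replicate 3 the ATG8 median was 0.0014 and the machinery median -0.06, and with arrays centred on their median they were 0.05 and -0.11. The median of all 10 genes was -0.082 with arrays centred on their median and -0.0073 with quantile normalization.

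Single arrays weighed on several of these differences. PGC-1αf/f replicate 3 was the lowest of the 6 arrays for 6 of the 10 genes and the highest for 2. mPGC-1α replicate 3 was the highest for 5. Within the slide columns that held both groups, 5 genes were higher in mPGC-1α in both columns, 4 were lower in both, and 1 (Atg5) differed in sign. Under 19 alternative ways of processing, 0 of the 10 genes passed the threshold. In 5 of the 19 the differences of all 10 genes were identical to the reported ones, since those settings alter only the filter or the model of the spread, or keep outlier spots that none of the brightest probes had. In the other 14, Map1lc3b, Gabarap, Atg7, Atg4b and Atg5 kept their direction, but the sizes of the last 4 moved by over 1.5 times with the scaling or the fit. Gabarap was 0.14 with arrays centred on their median and 0.16 with quantile normalization. Centring on the median gave 0.15 for Atg7 and -0.33 for Atg5, and normexp background correction with quantile normalization gave 0.12 and -0.12. Atg4b was -0.19 with array weights.

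**Figure D3:**
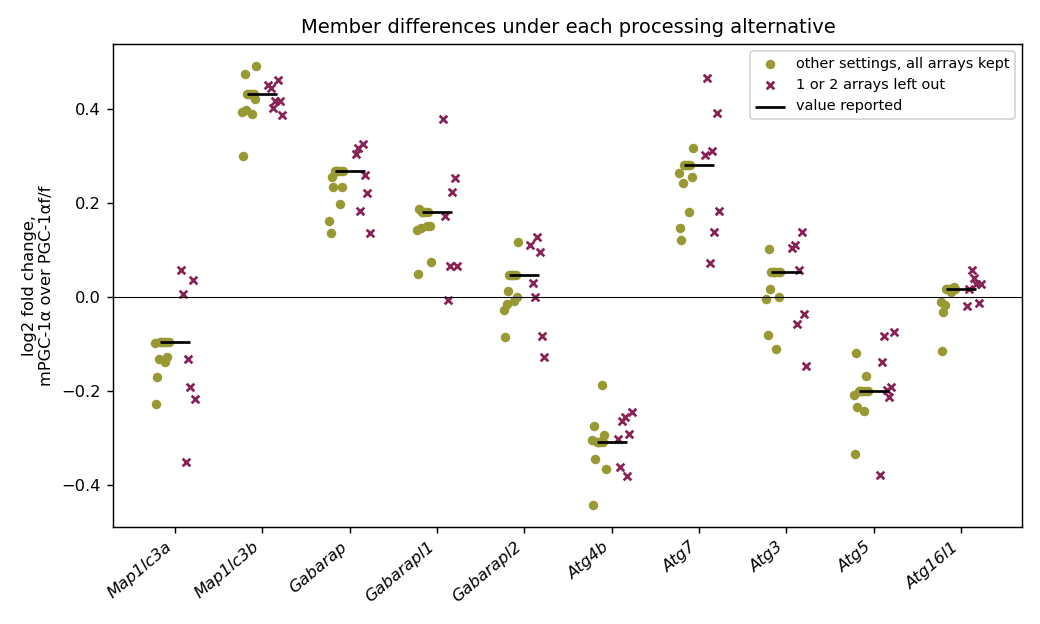
Difference between groups for each gene's brightest probe (y axis, log2 fold change of mPGC-1α over PGC-1αf/f) as reported (black line), under alternative settings with all arrays kept (circles) and with 1 or 2 arrays left out (crosses). Map1lc3b stays between 0.30 and 0.49, whereas the values of Map1lc3a, Gabarapl1, Gabarapl2, Atg3 and Atg16l1 fall on both sides of 0.

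To place these genes in the wider pathway, 45 other autophagy genes were read from the same fit. Of these, 44 were tested, and 0 passed the adjusted threshold. By an unadjusted limma p under 0.05 on the brightest probe, 1 gene was lower and 0 were higher, beside 5.71% and 8.16% of all tested genes. The gene was the cargo receptor Nbr1, named after its values were seen, which differed by -0.55 (limma adjusted p 0.240). Its difference was -0.47 without PGC-1αf/f replicate 3, -0.42 without mPGC-1α replicate 3 and -0.33 without both. Nbr1 was well above background on 2 of the 3 mPGC-1α arrays. Among dimmer probes, those of Atg2b (-1.02) and Rb1cc1 (-0.38 and -0.44) were lower with such a p, and that of Optn (0.59) was higher. In direction, 18 genes were higher and 26 lower, with a median difference of -0.06, whereas 54.1% of all tested genes lay above 0 and their median was 0.03. Single arrays moved the median of the 44 genes, to -0.10 without PGC-1αf/f replicate 1 and to -0.03 without PGC-1αf/f replicate 3, and between 13 and 19 genes were higher. Groups did not overlap in 3 higher and 9 lower genes of the 44, beside 12.2% and 10.8% of all tested genes. The median was -0.02 for 7 further conjugation genes, -0.17 for 5 initiation genes, -0.16 for 7 genes of the class III PI3 kinase complexes and -0.14 for 6 genes of membrane growth. For 10 receptors that bind ATG8 proteins it was below 0.01 in size, for 6 fusion genes 0.03 and for 3 transcription factors 0.01.

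Partners of the conjugation system were examined individually. Atg12, whose product is joined to ATG5, gave 2.91, 2.68 and 2.67 on the PGC-1αf/f arrays against 2.74, 2.69 and 2.94 on the mPGC-1α arrays. The groups overlapped, with a difference of 0.04 (SE 0.14, limma adjusted p 0.910) that was -0.04 without mPGC-1α replicate 3 and -0.08 without both replicates 3. Sqstm1, which encodes the receptor p62 that LC3 binds, gave 3.04, 2.82 and 2.85 against 3.08, 2.89 and 2.74. Its groups overlapped and their means were equal to 2 decimals, at 2.90 ± 0.12 and 2.90 ± 0.17 (SD, n = 3 each, limma adjusted p 0.999). Leaving out arrays gave Sqstm1 differences from -0.09 to 0.08. Ulk1, the kinase that starts autophagy, gave 1.58, 1.59 and 2.15 against 1.41, 1.50 and 1.59. Its highest value was PGC-1αf/f replicate 3, and the difference of -0.27 (SE 0.19, limma adjusted p 0.480) was -0.08 without that array and -0.32 without mPGC-1α replicate 3.

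Other autophagy genes whose groups did not overlap, and which were well above background on all arrays, differed by similar amounts without passing the threshold. Higher in mPGC-1α microglia were the receptor Optn by 0.50 (SE 0.21, limma adjusted p 0.303) and the ATG4 family protease Atg4d by 0.18 (SE 0.12, adjusted p 0.463). Without PGC-1αf/f replicate 3 they differed by 0.28 and 0.21, and without mPGC-1α replicate 3 by 0.48 and 0.16. Atg4d thus lay on the opposite side of 0 from Atg4b, although the difference between both genes was not tested. Lower were Wipi2, which recruits ATG16L1 to the forming membrane, with a difference of -0.33 (SE 0.18, limma adjusted p 0.373), Tecpr1, which binds the ATG12-ATG5 conjugate, with -0.33 (SE 0.15, adjusted p 0.324), and the PI3 kinase subunit Atg14 with -0.28 (SE 0.14, adjusted p 0.351). Wipi2, Tecpr1 and Atg14 differed by -0.17, -0.28 and -0.21 without PGC-1αf/f replicate 3 and by -0.28, -0.44 and -0.29 without mPGC-1α replicate 3. Wipi2 was at -0.12 without both.

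**Figure D4:**
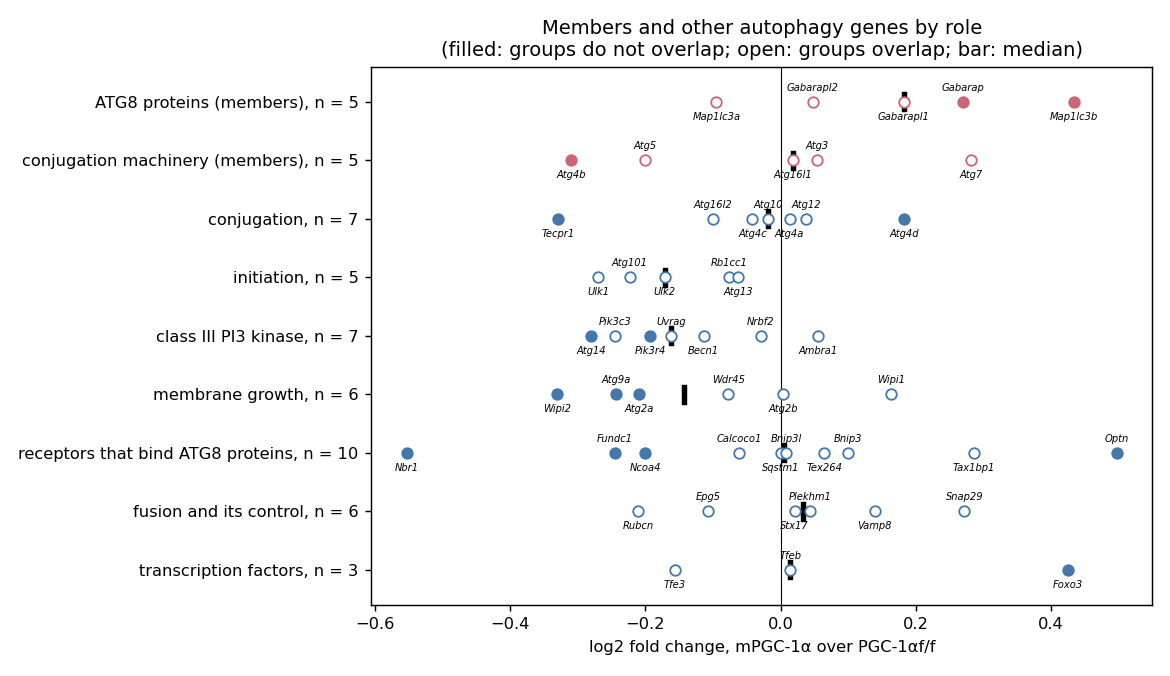
Difference between groups (x axis, log2 fold change of mPGC-1α over PGC-1αf/f) for the 10 genes (red) and the 44 other autophagy genes tested (blue), by role in the pathway. Filled points are genes whose groups do not overlap, open points overlap, and black bars are medians. From the third row down, 3 of 7, 0 of 5, 1 of 7, 2 of 6, 6 of 10, 4 of 6 and 2 of 3 genes lie above 0, as do 54.1% of all tested genes, and 0 passed the threshold.

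Finally, the purity of the isolated cells was compared, because in bulk samples fewer cells of a type and less RNA per cell cannot be told apart. All 8 microglial markers were well above background on every array, and 1 of them was higher and 7 lower in mPGC-1α microglia, with a median difference of -0.29. Cx3cr1, whose locus carries the Cre in these mice, was lower without overlap, by -0.51 (SE 0.14, limma unadjusted p 0.00905, adjusted p 0.194), or -0.57 without PGC-1αf/f replicate 3 and -0.45 without mPGC-1α replicate 3. The microglial median was -0.14 without PGC-1αf/f replicate 3 and -0.37 without mPGC-1α replicate 3. Signal was summed over the 3 with values on all arrays, Aif1, Csf1r and Cx3cr1, as a multiple of the array's 75th percentile. The sum was 60.9 to 71.2 in PGC-1αf/f microglia and 55.1 to 60.4 in mPGC-1α microglia. It includes the locus that carries the Cre, whereas the groups of Aif1 and Csf1r overlapped, with differences of 0.03 and -0.05. Blood leukocyte markers were higher in 7 of 7 tested genes, with sums of 81.8, 86.5 and 16.3 on PGC-1αf/f replicates 1, 2 and 3 and 91.3 to 110 on mPGC-1α arrays. PGC-1αf/f replicate 3 therefore held the least of these transcripts, and without it the median difference of the list was 0.24 in place of 1.08. Oligodendrocyte markers were lower in 6 of 6, with 14.0 to 16.7 against 9.13 to 11.8. Of the tested genes, 5 of 6 neuronal, 2 of 5 astrocyte and 4 of 4 endothelial and mural markers were higher, and without PGC-1αf/f replicate 3 these were 2 of 6, 1 of 5 and 3 of 4. Without mPGC-1α replicate 3 they were 5 of 6, 6 of 6 and 4 of 4. Leaving out both replicates 3 gave 3 of 6, 5 of 6 and 1 of 4. Leaving out mPGC-1α replicate 1 gave 5 of 6, 0 of 5 and 4 of 4. Neuronal sums were 12.5 to 16.3 against 14.6 to 16.5, astrocyte sums 11.4 to 14.3 against 11.5 to 18.3, and endothelial and mural sums 0.675 to 2.32 against 1.26 to 3.87. In these 6 lists 0 genes passed the adjusted threshold, and 6 of 8 neuronal, 5 of 6 astrocyte, 5 of 6 oligodendrocyte, 4 of 6 endothelial and mural and 7 of 8 leukocyte markers were well above background on all 6 arrays. The part of these cells in the differences of Map1lc3b, Gabarap, Atg4b and the other genes was not tested.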

How the data were processed

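Total RNA of microglia (3 arrays per genotype, grouped by the labels) was labeled with Cy5 and hybridized by the authors to 1-color Agilent mouse arrays. The deposited scanner files give spot intensity from Feature Extraction 11.5.1.1 after background subtraction and spatial detrending. The deposited table of the series holds the same intensity, rounded and without normalization between arrays. Array values were normalized in GeneSpring according to the methods, which state no gene-level test. An exact Mann-Whitney test, named there for group comparisons in general, cannot reach a p below 0.1 with 3 against 3.

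Control and outlier spots were left out, log2 intensity was reduced by the 75th percentile of the array (1012 to 2138 intensity units over 59305 spots), and spots of a probe were averaged. Probes well above background (at least 0.5 of their spots) on all arrays of a group were tested, 25333 in all, 25257 with a p-value. Names came from RefSeq (GRCm38.p6) through the transcript accession, with 1 symbol for 33767 probes. limma 3.58.1 (lmFit, eBayes, two-sided, Benjamini-Hochberg over all tested probes, threshold 0.05) was run in R 4.3.3 with data.table (version 1.17.8) and tested on simulated data. The brightest tested probe with values on all 6 arrays stood for a gene. The number of arrays limits the precision. Motifs and figures used Python 3.11.15, pandas 2.3.3, numpy 2.4.6 and matplotlib 3.10.9.

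All 10 genes are reported by all their probes. Of the other autophagy genes, up to 3 with the highest and 3 with the lowest difference were named if well above background on all 6 arrays with groups that did not overlap (2 qualified as higher), plus Ulk1, Sqstm1 and Atg12. The members, lists and rules were chosen with earlier results of these data known. In 19 alternatives, the scaling was replaced by quantile normalization, a median shift, normexp (offset 50, on the median spot signal) with quantile normalization, or the deposited values, the filter on dim probes was dropped or applied to all arrays, outlier spots were kept, and the fit used a replicate block, array weights, a robust trended eBayes, a random block for slide column, or the mean over a gene's probes. Each array, and both replicates 3, were also left out.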

Additional observations from a re-analysis of the deposited data

How the results depend on the processing

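Among the 10 genes, 0 passed the threshold under any of the 19 alternatives. The differences were identical by construction in 5 of these, and of the 140 values under the other 14, 118 kept their direction and 22 reversed. The lowest adjusted p was 0.0793, for Map1lc3b with array weights. The number of arrays limits the precision, and the 95% intervals of 8 of the 10 genes span more than 0.6 on the log2 scale. The cause of the changes below was not tested.

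Map1lc3b ranged from 0.30 with a median shift to 0.49 with the mean over its probes. A median shift moved the median of all probes by -0.14, and the number of genes that were higher was 4 of 10 with it and with quantile normalization. The member median was -0.0073 with quantile normalization, -0.082 with the median shift, 0.016 with the deposited table, 0.0021 with array weights and 0.011 with the slide column as a block, and the median of the other autophagy genes was -0.19 with the median shift. Reversed values were, for Gabarapl2, -0.028 with quantile normalization, -0.085 with the median shift, -0.015 with normexp and -0.0073 with array weights. For Atg3 they were -0.0044, -0.079 and -0.11 with quantile normalization, the median shift and array weights, and for Atg16l1 -0.010, -0.11, -0.032 and -0.017 with quantile normalization, the median shift, normexp and the deposited table. The second Gabarapl2 probe was -0.11 with the deposited table.

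With arrays left out, singly or both replicates 3 together, Map1lc3a ranged from -0.35 to 0.058, Gabarapl1 from -0.0061 to 0.38 (second probe -0.26 to 0.25), Gabarapl2 from -0.13 to 0.13, Atg3 from -0.15 to 0.14 and Atg16l1 from -0.020 to 0.059. The member median then ranged from -0.024 to 0.12, with 5 to 8 genes higher, and the median of the other autophagy genes from -0.10 to -0.026.

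Over all probes, 20 passed the threshold, against 11 with quantile normalization, with the median shift and with normexp, 456 with the deposited table, 9 without a filter, 4 with the filter on all arrays, 754 with array weights, 138 with the slide column as a block and 8 genes in place of probes. Without 1 array it was 0 (mPGC-1α replicate 3) to 25 (PGC-1αf/f replicate 3), and it was 3 without both replicates 3.

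The reported fit did not pair arrays by replicate number. Deviations of same-numbered arrays correlated at 0.139, 0.127 and 0.0187. These values were not tested and do not settle whether the numbers pair the arrays. Replicates 1 and 2 of both groups also shared slide columns. With the replicate block 0 of all probes passed, and Map1lc3b differed by 0.43 (limma adjusted p 0.215).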
